A study of Homo sapiens with 18 samples.

Results

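C4-2B is a human prostate cancer (PCa) cell line of the LNCaP lineage that grows without added androgen, and VIC-1911 is a small-molecule inhibitor of the mitotic kinase AURKA. The comparison described here set 3 libraries of C4-2B cells given 0.1 μM VIC-1911 for 2 days against 3 libraries of C4-2B cells given the solvent DMSO (vehicle) for 2 days. Both groups are labelled as wild type, were grown in RPMI medium with fetal bovine serum and antibiotics, and came from 1 cell line, so the 6 libraries (of 18 in the series) say nothing of other PCa cells. The labels do not say whether the 3 libraries of a group came from separate cultures, and p-values measure the spread between these libraries only. Poly(A) RNA was sequenced, and the reads counted on each gene were compared for 12241 of the 22136 genes in the table, those that reached 10 counts in 3 or more of the 6 libraries. A gene was said to pass when its adjusted p in edgeR's quasi-likelihood test was under 0.05, and was said to be called when its change was also at least 1.5-fold. Levels are given in CPM, a count scaled to the size of its library with TMM factors, with one value per library.

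AURKA matures the centrosomes and helps to build the bipolar spindle, and cells in which it is inhibited delay in mitosis or leave it with the wrong number of chromosomes. The tumor suppressor p53 can then halt the cycle through p21, the product of CDKN1A, which keeps RB-family proteins bound to E2F and so holds down the genes of DNA replication. The DREAM complex does the same for mitotic genes through short promoter elements. ATF4 is a transcription factor that is made when amino acids are short or when mTORC1 is active, and it drives genes of amino acid synthesis, import and tRNA charging.

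At 2 days, 918 genes passed as higher under VIC-1911 (7.5% of those tested) and 880 as lower (7.19%). The changes were small: 101 genes were called higher (0.825%) and 163 called lower (1.33%), and the median over all genes was a log2 fold change of -0.0034. Without VIC-1911 replicate 1, 564 genes passed as lower. Libraries held between 3245273 and 7184420 counts, and the 3 VIC-1911 libraries were all deeper than the 3 vehicle libraries. The first principal component, with 40.4% of the variance, separated the groups. All 15 luminal prostate markers averaged at least 1 FPKM, a level scaled to gene length and library size, with a summed level of 2896 to 3086 FPKM under vehicle and 2807 to 2932 FPKM under VIC-1911. KLK3 alone was at 1446 to 1569 FPKM under vehicle and 1244 to 1349 FPKM under VIC-1911. Of the 15 markers, 6 passed as higher and 1, KLK3, as lower. Of other cell types, the 9 basal markers summed to 1.62 to 1.97 FPKM under vehicle and 1.77 to 2.11 FPKM under VIC-1911. Of these, KRT5, TP63 and KRT17 were at 0 in all 6 libraries. The 11 stromal markers summed to 2.10 to 2.26 FPKM under vehicle and 1.51 to 1.87 FPKM under VIC-1911 (DCN, LUM and DES at 0). The 14 immune and endothelial markers summed to between 6.85 and 8.37 FPKM, of which CD68 had 5.55 to 7.36 FPKM. Of the stromal markers 9 were under 0.1 FPKM in all 6 libraries. COL1A1 made up most of their sum, at 1.84, 1.75 and 1.58 FPKM under vehicle and 1.20, 1.28 and 1.10 FPKM under VIC-1911. It passed as lower (adjusted p = 0.0334), but not under DESeq2 nor without vehicle replicate 1 or 2 or VIC-1911 replicate 1 or 3. Whether its fall bears on other results was not tested.

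Genes of the ATF4 program were lower under VIC-1911. Of 26 regulators and feedback genes of ATF4, all of which were tested, 15 fell and 1 rose, 10 of them were called lower, and the list had a median log2 fold change of -0.36. ATF4 itself (chr22:39520559-39522686, GRCh38) was at 732, 730.0 and 712 CPM under vehicle and 495, 499 and 559.9 CPM under VIC-1911. The groups did not overlap, and ATF4 fell by 0.48 on the log2 scale (SE 0.05, adjusted p = 3.65e-10). TRIB3, a pseudokinase that ATF4 induces and that restrains it, was at 214, 217 and 217 CPM under vehicle and 102, 110.2 and 128 CPM under VIC-1911. It fell 1.90-fold, with every VIC-1911 library under every vehicle library. CHAC1, which breaks down glutathione, was at 35.4, 30.3 and 38.4 CPM under vehicle and 10.6, 14.6 and 16.8 CPM under VIC-1911. Its fall of 2.48-fold (adjusted p = 6.61e-10) was the largest of the list. FAM129A, a stress-induced survival gene now named NIBAN1, fell by 1.17 and DDIT4, an inhibitor of mTORC1, fell by 0.96 on the log2 scale. Among the other transcription factors of the list, CEBPB (-0.76), CEBPG (-0.44), NUPR1 (-0.34) and JDP2 (-0.80) fell, while DDIT3, which encodes CHOP, did not pass at -0.27 (adjusted p = 0.111) and shares 27.2% of its exonic bases with MARS on the opposite strand. The 4 eIF2 kinase genes EIF2AK1, EIF2AK2, EIF2AK3 and EIF2AK4 lay between -0.04 and 0.14 and none passed.

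Enzymes and transporters fell with it, though not uniformly. Of 33 tested enzymes of serine, asparagine and one-carbon metabolism, 13 fell and 3 rose. All 3 enzymes that make serine from a glycolytic intermediate fell: PHGDH by 0.79, PSAT1 by 0.70 and PSPH by 0.32 on the log2 scale. PHGDH was at 716, 725 and 708 CPM under vehicle and 392.1, 409 and 446 CPM under VIC-1911. ASNS, which makes asparagine, was at 426, 445 and 406 CPM under vehicle and 210.0, 213 and 255 CPM under VIC-1911, and PCK2 (chr14:24094171-24104125), the mitochondrial PEP carboxykinase, was at 335, 339.8 and 339 CPM under vehicle and 139.9, 163 and 176 CPM under VIC-1911. The groups did not overlap for any of these, and PCK2 had the largest fall of the list, 2.12-fold. The mitochondrial folate enzymes SHMT2 (-0.35) and MTHFD2 (-0.59) fell (MTHFD2 shares 11.6% of its exonic bases with SLC4A5), whereas cytosolic SHMT1 (-0.18), MTHFD1 (-0.09) and thymidylate synthase TYMS (0.05) did not pass. GOT2, the mitochondrial aspartate aminotransferase, rose by 0.29. Of 19 tested amino acid transporters, 10 fell and 1 rose. SLC7A11 (chr4:138164097-138242349), which exchanges cystine for glutamate, was at 365, 312 and 347 CPM under vehicle and 159, 147 and 183 CPM under VIC-1911, a fall of 2.07-fold. Reads of an antisense gene that shares 8.97% of its exonic bases cannot be told apart from its own. SLC1A4 (-1.09) and SLC1A5 (-0.61), which carry small neutral amino acids, SLC6A9 (-0.99), which carries glycine, and both chains of the leucine carrier, SLC7A5 (-0.44) and SLC3A2 (-0.57), fell as well.

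The aminoacyl-tRNA synthetases, which charge tRNAs with their amino acids, went both ways. Over all tested genes 7.19% passed as lower and 7.5% as higher. Of 20 cytosolic synthetases 9 fell and 4 rose, and of 17 mitochondrial ones 1 fell and 3 rose, none of them past 1.5-fold. The 7 that fell in all 11 alternative fits counted here (5 other settings and 6 fits that each left out 1 library) were the cytosolic enzymes for cysteine, methionine, glycine, serine, alanine, tyrosine and isoleucine. MARS was at 346, 375 and 366 CPM under vehicle and 255, 259 and 272 CPM under VIC-1911, GARS at 483, 477 and 480.3 CPM under vehicle and 332, 350.2 and 374 CPM under VIC-1911 and CARS at 177, 176 and 175 CPM under vehicle and 118, 130.3 and 131 CPM under VIC-1911. Falls ran from 0.48 for CARS to 0.24 for IARS on the log2 scale. At the other end, RARS (0.19), FARSB (0.20), VARS (0.18) and KARS (0.16) passed as higher. Each missed the threshold in at least 1 of the fits that left out 1 library. The largest such adjusted p was 0.0784 for RARS (without vehicle replicate 1), 0.0939 for FARSB and 0.0861 for VARS (without VIC-1911 replicate 1), and 0.142 for KARS (without VIC-1911 replicate 3).

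**Figure D1:**
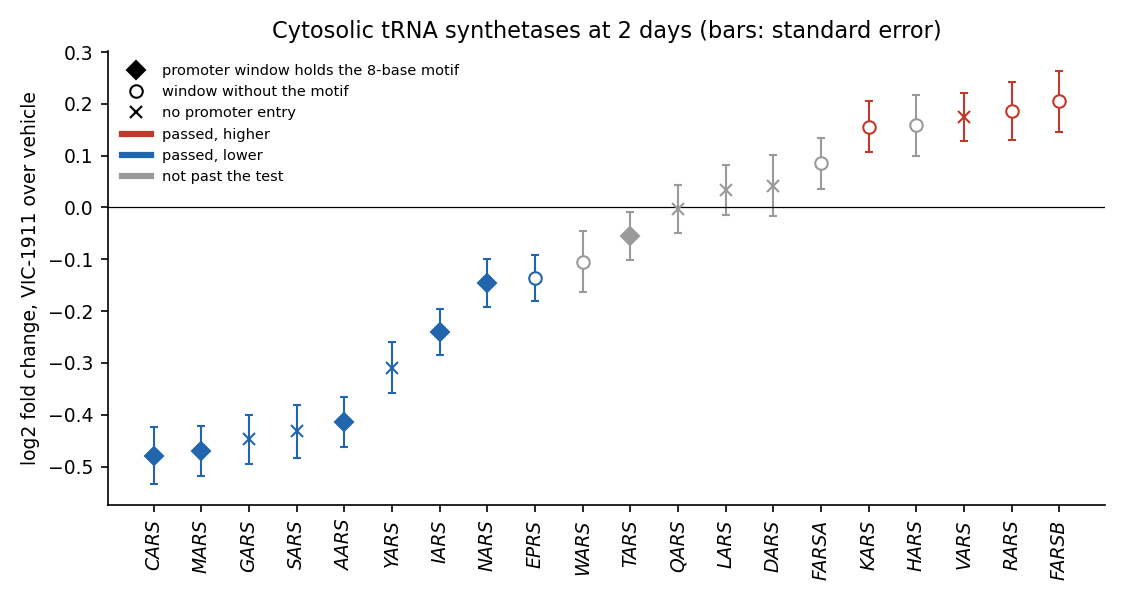
The 20 cytosolic tRNA synthetases in order of their log2 fold change of VIC-1911 over vehicle at 2 days (y axis; bars are the standard error), colored by whether they passed, with the shape giving the promoter search. Of the 6 fallers with a promoter entry 5 are filled diamonds, and the 3 risers with an entry are open circles.

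The promoters of these genes were read from RefSeq (GRCh38.p14, 250 bases before to 50 bases after the start of the gene) and searched on both strands for TGATGNAA, the core of the element that ATF4 binds with C/EBP proteins. It occurs in 3.67% of all 27305 promoters and in 1.51% of the 9792 promoters matched to tested genes. Of 13 cytosolic synthetases with an entry 6 held it: 5 of the 6 that fell, none of the 3 that rose, and TARS, which did not pass (-0.06, adjusted p = 0.468). In the other ATF4, enzyme and transporter lists the motif was in 5 of 29 promoters of genes that fell (17.2%) and in 5 of 34 of the rest (14.7%). The windows are shown for the synthetases and for ASNS, CHAC1 and the cationic amino acid carrier SLC7A1, 5′ to 3′ on the strand of the gene, with the match in capitals (TTGCATCA is TGATGCAA on the other strand).
AARS (chr16:70289656-70289715, minus strand): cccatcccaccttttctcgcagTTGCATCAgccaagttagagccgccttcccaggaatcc
CARS (chr11:3057388-3057447, minus strand): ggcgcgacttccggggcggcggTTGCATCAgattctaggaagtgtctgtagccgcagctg
IARS (chr9:92293673-92293732, minus strand): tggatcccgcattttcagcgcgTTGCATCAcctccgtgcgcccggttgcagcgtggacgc
MARS (chr12:57488042-57488101, plus strand): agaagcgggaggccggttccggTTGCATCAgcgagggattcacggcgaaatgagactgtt
NARS (chr18:57621787-57621844, minus strand): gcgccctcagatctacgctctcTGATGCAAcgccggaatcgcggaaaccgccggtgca
TARS (chr5:33440945-33441004, plus strand): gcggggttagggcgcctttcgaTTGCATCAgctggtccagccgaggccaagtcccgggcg
ASNS (chr7:97872439-97872498, minus strand): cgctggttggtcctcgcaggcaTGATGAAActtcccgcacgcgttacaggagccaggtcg
CHAC1 (chr15:40953240-40953299, plus strand): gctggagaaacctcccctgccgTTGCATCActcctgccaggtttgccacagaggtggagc
SLC7A1 (chr13:29595644-29595703, minus strand): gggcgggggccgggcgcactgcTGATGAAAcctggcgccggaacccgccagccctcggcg
The 8 matched bases were the same in the 5 synthetases that fell and in TARS, read on one or the other strand. Counted from the start of the gene, the match began at -2 in CARS, -4 in MARS and -13 in IARS, but at -187 in AARS and -209 in CHAC1. NARS fell by only 0.15 on the log2 scale. It did not pass without vehicle replicate 2 (adjusted p = 0.0806), without VIC-1911 replicate 1 (0.0955) or without VIC-1911 replicate 2 (0.114).

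The VIC-1911 libraries did not change equally. Over all genes, VIC-1911 replicate 3 was the nearest of the 3 to the vehicle mean for 429 of the 880 that passed as lower and 463 of the 918 that passed as higher. It was the library nearest the vehicle mean for 13 of the 15 ATF4 genes that fell, 10 of 13 enzymes, 9 of 10 transporters and 10 of 10 synthetases. It was nearest for 12 of 42 replication genes and 21 of 49 mitotic genes that fell. In the ATF4 list the median log2 difference from the vehicle mean was -0.76, -0.74 and -0.54 in replicates 1, 2 and 3. Whether these shares differ between the lists was not tested.

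**Figure D2:**
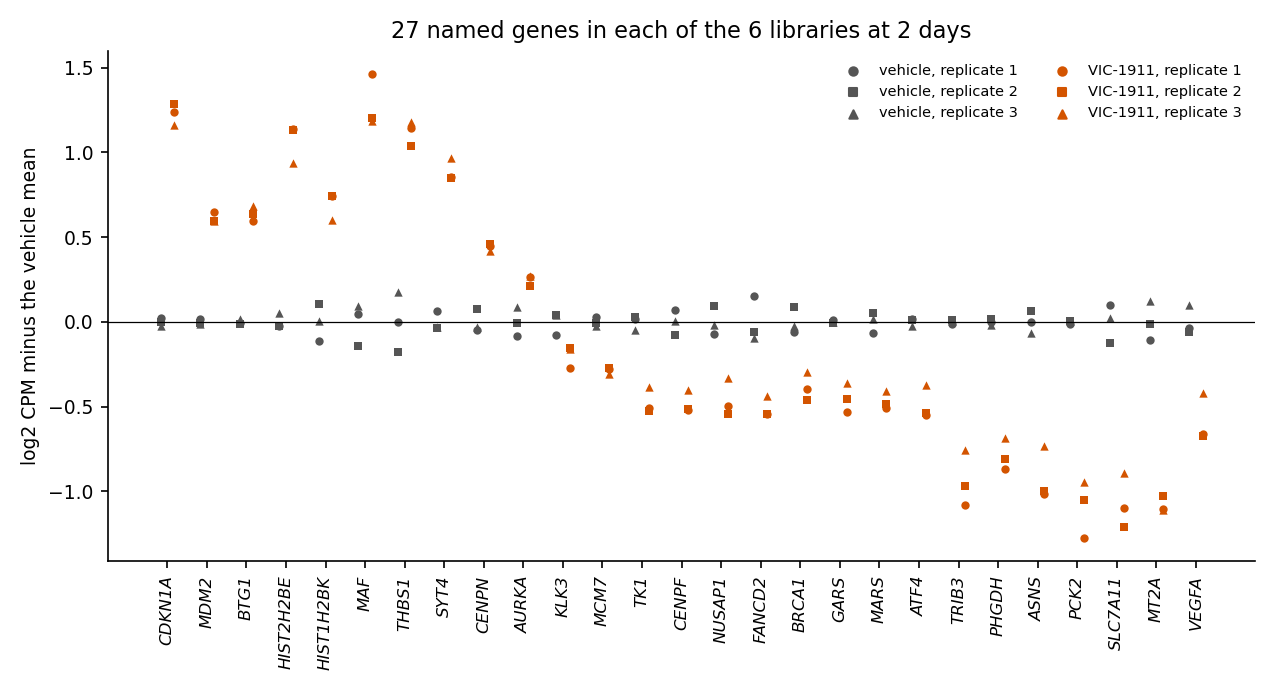
For 27 named genes, the log2 CPM of each of the 6 libraries minus the mean of the 3 vehicle libraries, with vehicle in gray and VIC-1911 in orange and the replicate number as the shape. Vehicle libraries stay within about 0.2 of their mean, and from TRIB3 to SLC7A11 the triangle of VIC-1911 replicate 3 is the nearest of the 3 to the vehicle points.

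Genes of DNA replication and the G1/S transition were lower as a list. All 67 were tested, 42 fell and 1 rose, but only 4 were called, and the median log2 fold change was -0.27. The fall covered each role: 9 of 17 licensing genes, 20 of 29 polymerase and fork genes, 5 of 8 genes of dNTP supply and 8 of 13 E2F and cyclin E genes. TK1, which salvages thymidine, was at 204, 206 and 195 CPM under vehicle and 142, 140.2 and 155 CPM under VIC-1911. DUT, which removes dUTP, was at 113, 109 and 107 CPM under vehicle and 72.9, 81.7 and 87.4 CPM under VIC-1911. The groups were separate for both, at -0.47 ± 0.05 (SE) and -0.44 ± 0.07 (SE) on the log2 scale. MCM7, a subunit of the replicative helicase, was at 296, 289.9 and 286 CPM under vehicle and 240.2, 241 and 235 CPM under VIC-1911, a fall of 1.22-fold. RFC5 (-0.49) of the clamp loader, PRIM1 (-0.44) of primase, CDC45 (-0.47), E2F1 (-0.43) and E2F7 (-0.63) fell, as did CDKN2C (-0.66), an inhibitor of CDK4 and CDK6, and MXD3 (-0.76), which shares 24.2% of its exonic bases with PRELID1 on the opposite strand. The clamp PCNA was close to the limit at -0.20 (adjusted p = 0.0209). It did not pass without vehicle replicate 2 (0.144), without vehicle replicate 3 (0.0508) or without VIC-1911 replicate 1 (0.12). CCNE1, cyclin E1, was the 1 member that passed as higher, at 0.35 (adjusted p = 0.0345). It did not pass without vehicle replicate 1 (0.112), vehicle replicate 3 (0.112), VIC-1911 replicate 1 (0.115) or VIC-1911 replicate 3 (0.0763). Under DESeq2, 26 of the 67 passed as lower. RNA was taken from whole cultures, so fewer cells in S phase or in mitosis and less of these RNAs per cell cannot be told apart.

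An E2F site (searched as TTTGGCGC, TTTCCCGC or TTTCGCGC, both strands) was in 2.79% of all promoters and 4.83% of those of tested genes. It was in 15 of the 36 promoters of replication genes that fell (41.7%) and in 25 of 58 over the tested list (43.1%), so the share in genes that fell was close to that in the list as a whole. The sites are shown for MCM2 and MCM3 of the helicase, UHRF1, which keeps up DNA methylation, the RB relative RBL1 and E2F1.
MCM2 (chr3:127598391-127598450, plus strand): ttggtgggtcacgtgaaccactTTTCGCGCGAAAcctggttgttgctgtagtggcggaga
MCM3 (chr6:52284879-52284938, minus strand): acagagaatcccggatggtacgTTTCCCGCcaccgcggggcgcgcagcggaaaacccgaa
UHRF1 (chr19:4909465-4909524, plus strand): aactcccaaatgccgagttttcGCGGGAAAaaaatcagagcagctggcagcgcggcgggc
RBL1 (chr20:37095986-37096045, minus strand): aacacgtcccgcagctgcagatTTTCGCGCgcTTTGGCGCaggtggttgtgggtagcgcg
E2F1 (chr20:33686368-33686427, minus strand): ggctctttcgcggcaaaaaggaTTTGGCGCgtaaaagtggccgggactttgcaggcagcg
In MCM2 and RBL1 the windows held a pair of matches, which overlap in MCM2. The 5 genes fell by 0.27, 0.27, 0.35, 0.49 and 0.43 on the log2 scale in the order printed.

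Mitotic genes were lower in part, beside 7.19% of all tested genes that passed as lower and 7.5% as higher. Of 104 tested G2/M genes 49 fell, 3 rose and 4 were called lower, with a median log2 fold change of -0.23. CENPF, a kinetochore protein, was at 226, 204 and 216 CPM under vehicle and 149.8, 151 and 162 CPM under VIC-1911. NUSAP1, which bundles spindle microtubules, was at 117, 130.4 and 121 CPM under vehicle and 86.9, 84.1 and 97.2 CPM under VIC-1911. Both fell, by 0.47 and 0.45, with no overlap between the groups. By role, 12 of 29 kinetochore genes, 13 of 19 genes of chromosome structure and cytokinesis, 10 of 21 kinase and cyclin genes, 8 of 14 kinesins, 5 of 13 Aurora kinases and partners and 1 of 8 genes of the anaphase-promoting complex and its activators fell. MKI67 (-0.41), the condensin genes NCAPG2 (-0.40), NCAPH (-0.40) and NCAPD3 (-0.39), TOP2A (-0.29), CCNA2 (-0.42), CDK1 (-0.26), MYBL2 (-0.39) and FOXM1 (-0.33) were among them. In contrast CCNB1 was at 239.8, 252 and 241 CPM under vehicle and 241, 254 and 228 CPM under VIC-1911, and its groups overlapped. PLK1 (0.01), TPX2 (-0.08), BUB1 (-0.04), BUB1B (-0.05), CENPE (0.00) and KIF20A (-0.08), which serve the spindle and its checkpoint, did not pass. CDC20, which activates the anaphase-promoting complex, rose by 0.24. It was at 142, 157 and 151 CPM under vehicle and 185, 185 and 165 CPM under VIC-1911.

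Of the Aurora kinases, the drug's target AURKA (chr20:56369390-56392215) was at 74.7, 78.7 and 84.2 CPM under vehicle and 94.9, 91.6 and 95.5 CPM under VIC-1911, a rise of 0.24 on the log2 scale (SE 0.06, adjusted p = 0.00755) that missed the threshold under DESeq2 (adjusted p = 0.0555). AURKB was at 42.1, 46.2 and 39.3 CPM under vehicle and 31.6, 29.8 and 31.7 CPM under VIC-1911 and fell by 0.45. INCENP (-0.30) and BIRC5 (-0.25), which work in 1 complex with AURKB, fell, and the AURKA partners TPX2, BORA (-0.16) and TACC3 (-0.06) did not pass. AURKC had too few counts to be tested. CENPN, a kinetochore gene that also responds to androgen, stood apart: it was at 467, 509 and 474 CPM under vehicle and 659, 665 and 644 CPM under VIC-1911, and rose by 0.44 (adjusted p = 1.7e-09).

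The 6 bases TTTGAA, the core of the cell cycle homology region through which DREAM acts, were in 15.4% of all promoters and 9.01% of those of tested genes. They were in 24 of 41 promoters of mitotic genes that fell (58.5%) and in 49 of 88 over the tested list (55.7%). The matches are shown for the kinesins KIF11 and KIF23, the Ki-67 gene MKI67 and the midzone gene PRC1.
KIF11 (chr10:92593080-92593139, plus strand): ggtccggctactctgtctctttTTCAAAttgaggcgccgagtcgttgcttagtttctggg
KIF23 (chr15:69414272-69414331, plus strand): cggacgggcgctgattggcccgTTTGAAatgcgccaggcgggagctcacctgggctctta
MKI67 (chr10:128126433-128126492, minus strand): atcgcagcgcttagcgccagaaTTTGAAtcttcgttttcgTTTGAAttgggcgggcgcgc
PRC1 (chr15:90994518-90994577, minus strand): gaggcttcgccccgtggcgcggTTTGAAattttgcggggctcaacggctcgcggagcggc
Counted from the start of the gene the match began at -55 in KIF23 and nearer in the other 3, MKI67 held a pair of matches, and the genes fell by 0.37, 0.33, 0.41 and 0.28.

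Repair genes were lower in part as well, beside 7.19% of all tested genes that passed as lower and 7.5% as higher. Of 42 tested genes of homologous recombination and the Fanconi pathway 13 fell and none rose, and of 19 checkpoint genes 6 fell and none rose. FANCD2, which is loaded on DNA at crosslinks, was at 68.6, 59.3 and 57.9 CPM under vehicle and 42.3, 42.4 and 45.7 CPM under VIC-1911. BRCA1 was at 59.8, 66.3 and 61.4 CPM under vehicle and 47.5, 45.4 and 51.0 CPM under VIC-1911. They fell by 0.49 and 0.38, and FANCG (-0.59), FANCA (-0.49, which shares 19.6% of its exonic bases with ZNF276), RAD54L (-0.44) and the nuclease EXO1 (-0.58) fell likewise. BRCA2 (-0.15), PALB2 (0.01), ATM (-0.01), ATR (0.16) and PARP1 (-0.02) did not pass. Among checkpoint genes CLSPN (-0.44) and TOPBP1 (-0.33), which activate ATR, fell. With DESeq2, 8 of the 42 passed as lower.

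p53 targets were mostly higher. Of 55 tested targets 30 rose and 3 fell, 12 were called higher, and the median log2 fold change was 0.30. CDKN1A (chr6:36676463-36687332) was at 181, 178 and 175 CPM under vehicle and 419, 433 and 398 CPM under VIC-1911, a rise of 2.34-fold with the smallest adjusted p of all genes (8.47e-21). Of 11 arrest genes 9 rose, among them PLK2 (0.88), BTG1 (0.64) and GADD45A (0.54). Of 12 death genes 7 rose, with BAX at 0.47 and the decoy receptor TNFRSF10D at 0.40, while BBC3, which encodes PUMA, did not pass at 0.09. PMAIP1, which encodes NOXA and is also an ATF4 target, was at 10.1, 9.51 and 10.3 CPM under vehicle and 7.68, 5.53 and 6.71 CPM under VIC-1911, and passed as lower only narrowly (adjusted p = 0.0358). Of the 6 fits that left out 1 library, it passed only in that lacking VIC-1911 replicate 1. The other 5 gave an adjusted p of 0.0524 to 0.131. Of 7 genes listed under DNA repair and nucleotide supply 3 rose, with RRM2B at 0.34. FDXR, at 0.43, was counted in this group although it encodes ferredoxin reductase and not a repair enzyme. SPATA18 (Mieap), which acts in mitochondrial quality control, had the largest rise, from 11.6, 7.30 and 8.33 to 25.7, 21.5 and 19.4 CPM (2.52-fold). In the feedback group MDM2 rose by 0.61 and its relative MDM4 fell by 0.48, with MDM4 at 42.7, 45.1 and 43.0 CPM under vehicle and 30.3, 32.2 and 31.8 CPM under VIC-1911. Of the sestrins, which restrain mTORC1, SESN1 rose by 0.61, and SESN2, an ATF4 as well as p53 target, passed as lower at -0.24 (adjusted p = 0.0219). SESN2 did not pass without vehicle replicate 3 (0.19), VIC-1911 replicate 1 (0.0656) or VIC-1911 replicate 3 (0.0745).

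Replication-dependent histone transcripts were higher. Most replication-dependent histone mRNAs lack a poly(A) tail, and poly(A) RNA was sequenced. Of the 63 histone genes listed 54 were in the count table and 21 had enough counts to be tested, and a gene that reached 10 counts through the VIC-1911 libraries alone would be among them. Of these 21, 13 rose, 10 were called higher, none fell and the median log2 fold change was 0.68. HIST2H2BE (chr1:149884459-149886682, now H2BC21) was at 79.3, 79.4 and 83.8 CPM under vehicle and 178, 177 and 154 CPM under VIC-1911, a rise of 2.09-fold. HIST1H2BK was at 135, 157 and 147 CPM under vehicle and 245, 245 and 222 CPM under VIC-1911, and the linker histone HIST1H1C was at 122, 137 and 117 CPM under vehicle and 179, 200.4 and 167 CPM under VIC-1911. No vehicle library reached the level of a VIC-1911 library in these 3. HIST1H2BC rose by 1.32, HIST2H2BF by 1.00, HIST1H4H by 0.89, HIST1H2BJ by 0.81 and HIST1H2AC by 0.70. Histone genes are near copies of each other, so reads may be split between them. DESeq2 passed 8 of the 21 as higher.

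Androgen-responsive genes were mostly higher. Of 38 tested members 22 rose, 1 fell and 5 were called higher. Of 23 transcription factor and signaling members 18 rose, against 4 of 15 secreted and membrane products. MAF, a transcription factor, was at 17.4, 15.3 and 17.98 CPM under vehicle and 46.4, 38.7 and 38.3 CPM under VIC-1911. RHOU, a small GTPase, was at 58.0, 53.1 and 65.4 CPM under vehicle and 121, 113 and 96.7 CPM under VIC-1911. These rose 2.45-fold and 1.87-fold, with separate groups. The elongation factor ELL2 (0.63), the cochaperone FKBP5 (0.50) and EAF2 (0.89) rose. KLK3 (PSA) was at 3311, 3593 and 3603 CPM under vehicle and 2898, 3139 and 3129 CPM under VIC-1911 and fell by 0.20, while KLK2 (0.06), KLK4 (0.15) and ACPP (0.13) did not pass. The pioneer factors FOXA1 (-0.08) and HOXB13 (-0.10) did not pass either. TRPM8, a luminal ion channel, rose by 0.57.

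SYT4, a vesicle protein counted among neuroendocrine markers, was at 114, 107 and 107 CPM under vehicle and 198, 197 and 214 CPM under VIC-1911, a rise of 1.86-fold (adjusted p = 3.82e-15). The summed level of the 14 neuroendocrine markers moved with it, from 27.3 to 29.6 FPKM under vehicle to 45.2 to 48.2 FPKM under VIC-1911, but CHGB, INSM1, NEUROD1 and FOXA2 were at 0 in all 6 libraries and CHGA and NCAM1 were under 0.1 FPKM. ENO2, the neuronal enolase, passed as lower and fell from 10.1, 11.5 and 13.2 to 5.87, 5.92 and 6.14 CPM.

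Cytoskeletal and signaling genes were higher in part, beside 7.5% of all tested genes that passed as higher and 7.19% as lower. Of 23 tested actin, SRF and YAP targets 10 rose and 1 fell. THBS1, a matrix glycoprotein, was at 43.6, 38.5 and 49.3 CPM under vehicle and 96.1, 89.4 and 98.5 CPM under VIC-1911, a rise of 2.17-fold, and the regulatory myosin light chain MYL9 was at 4.58, 6.19 and 5.92 CPM under vehicle and 13.4, 9.28 and 13.9 CPM under VIC-1911. CALD1 (0.36) and CNN2 (0.40) rose too, whereas CYR61 (0.16), a standard YAP target, YAP1 (-0.01) and TEAD1 (-0.05) did not pass. Some members of this list, CDC42EP3 among them, were taken from the study's own table on these samples, and their direction is not independent. DESeq2 passed 6 of the list as higher. Of 17 tested tubulins 5 rose and 3 fell. Tubulin genes went both ways: TUBB6 was at 26.8, 31.4 and 30.0 CPM under vehicle and 50.6, 53.3 and 43.6 CPM under VIC-1911 and rose by 0.72 (it shares 21.2% of its exonic bases with AFG3L2), TUBB3 rose by 0.51, and the main α-tubulin TUBA1B was at 1081, 1122 and 1079 CPM under vehicle and 838, 902 and 900.3 CPM under VIC-1911 and fell by 0.31. TUBA1B shares 44% of its exonic bases with an antisense gene. TUBA3D (0.71) and TUBA3E (0.54) are near-identical copies and rose as a pair. Of 22 tested BMP, TGF-beta and Notch genes 4 rose and 2 fell, with a median log2 fold change of 0.05. ID1, a target of BMP signaling, was at 15.6, 17.7 and 17.1 CPM under vehicle and 30.2, 29.0 and 26.8 CPM under VIC-1911, and the Notch ligand JAG1 was at 17.999, 12.6 and 16.7 CPM under vehicle and 25.6, 25.1 and 25.4 CPM under VIC-1911. They rose by 0.76 and 0.71, and BMP7 fell by 0.67, with 1 VIC-1911 library close to the vehicle range (31.7, 37.6 and 33.3 against 16.8, 19.9 and 27.99 CPM).

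VIC-1911 also binds TRK kinases, which signal through ERK, so genes that report ERK activity were listed. The ERK phosphatase gene DUSP6 had too few counts to be tested. Of 31 ERK output genes 15 were tested, and 2 rose and 1 fell. Over all tested genes 7.5% passed as higher and 7.19% as lower. CCND1, cyclin D1, was at 485, 453 and 487 CPM under vehicle and 639, 595 and 574 CPM under VIC-1911 and rose by 0.35, and JUNB rose by 0.41. PHLDA1, a gene induced by ERK, was at 27.2, 24.5 and 26.8 CPM under vehicle and 17.3, 21.5 and 18.7 CPM under VIC-1911 and fell by 0.46 (adjusted p = 0.00467, 0.0523 under DESeq2). SPRY1 (0.13), SPRY2 (-0.55), DUSP4 (0.03) and MYC (0.11) did not pass.

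Metabolic and stress lists went both ways, beside 7.5% of all tested genes that passed as higher and 7.19% as lower. Of 11 tested fatty acid synthesis genes 7 fell, among them FASN (-0.32), FADS1 (-0.34), SCD (-0.25) and their regulator SREBF1 (-0.27), while of 20 cholesterol genes 2 fell and 3 rose. FASN was at 4600.0, 3772 and 4624 CPM under vehicle and 3605, 3314 and 3498 CPM under VIC-1911. INSIG1, which holds back sterol synthesis, fell by 0.40. Of 18 glycolytic genes 4 rose and 1 fell, LDHA rising by 0.21, and of 11 hypoxia genes VEGFA passed as lower, at 150.4, 148 and 165 CPM under vehicle and 97.4, 96.5 and 115 CPM under VIC-1911. Of 21 tested NRF2, glutathione and metal genes 3 rose and 5 fell. MT2A, a metallothionein that binds zinc and copper, was at 53.4, 57.0 and 62.7 CPM under vehicle and 26.8, 28.2 and 26.7 CPM under VIC-1911 and fell 2.14-fold, while MT1X (0.03) did not pass and the zinc exporter SLC30A1 rose by 0.43. MT2A has close copies, and its counts may include theirs. GPX8 fell by 1.00 and NQO1, a target of NRF2, by 0.23, but HMOX1 (-0.02), GCLM (-0.03) and TXNRD1 (0.12) did not pass. None of 14 ER chaperones passed, with HSPA5 at 0.10, and of 10 ER sensors and degradation genes XBP1 (-0.50) and HERPUD1 (-0.17) fell. HERPUD1 did not pass without vehicle replicate 2 (adjusted p = 0.145), VIC-1911 replicate 1 (0.0934) or VIC-1911 replicate 2 (0.0729). Of 14 tested interferon-stimulated genes ISG15 rose (0.40) and the other 13 did not pass, MX1 (-0.29) among them. B2M, the light chain of MHC class I, rose by 0.25. Of 16 tested NF-kB targets 4 rose and none fell. Of the 10 subunits and inhibitors NFKB2 (0.31) rose, with NFKBIA at 0.08. Of the 6 cytokine and adhesion genes the cytokines LIF (0.86) and IL32 (1.23) and the polyamine enzyme SAT1 (0.23) passed as higher, but without vehicle replicate 3 their adjusted p was 0.0529, 0.0911 and 0.151. SAT1 also did not pass without vehicle replicate 1 (0.107), VIC-1911 replicate 2 (0.123) or VIC-1911 replicate 3 (0.0966).

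**Figure D3:**
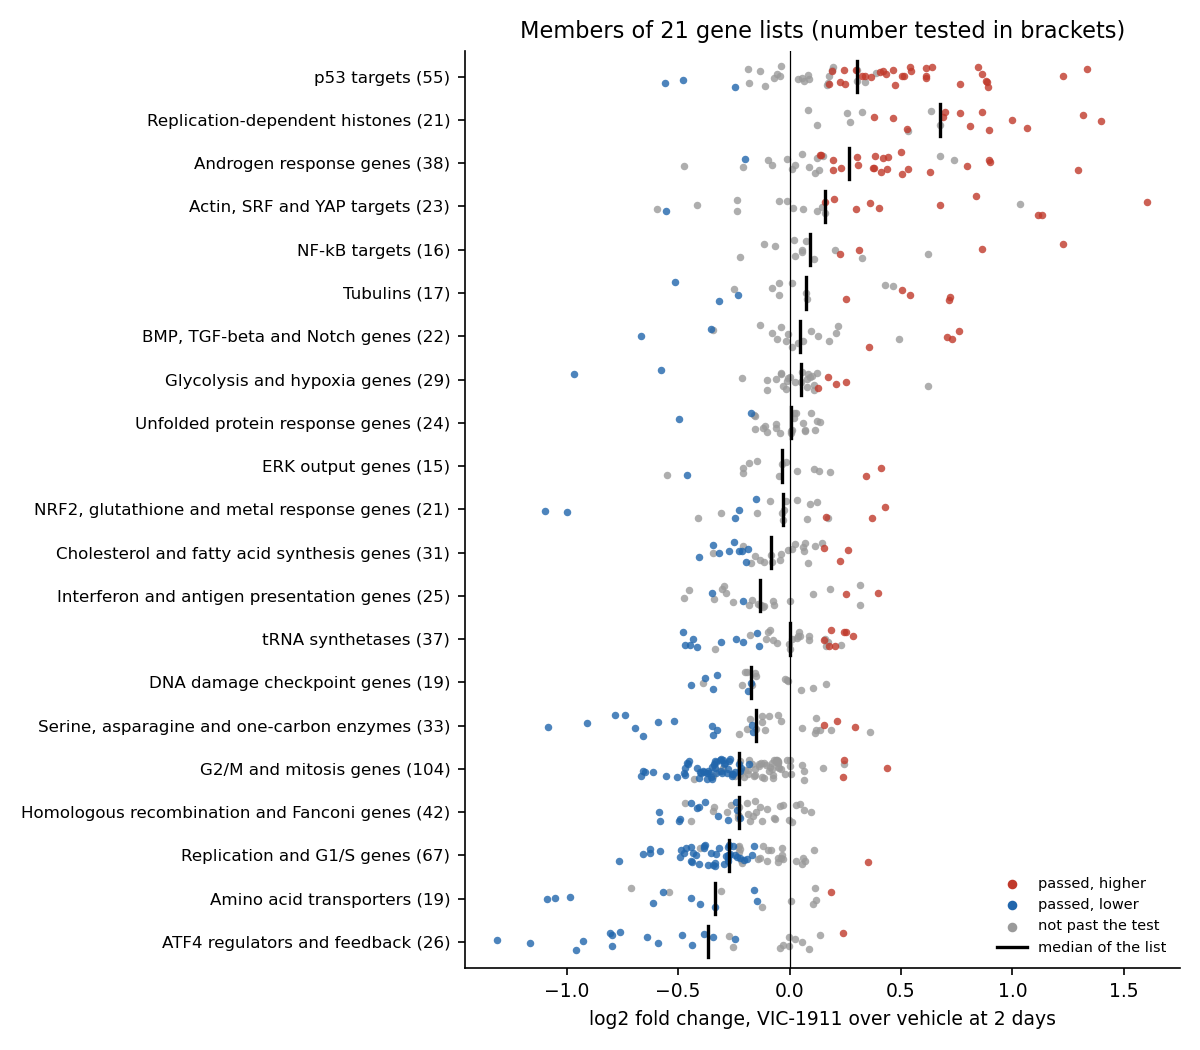
Log2 fold change of VIC-1911 over vehicle at 2 days (x axis) for the tested members of 21 gene lists, with red and blue points for members that passed and a black bar at the median of each list. The histone list has the highest median (0.68) and the ATF4 list the lowest (-0.36), and the mitosis and replication lists are narrow clouds to the left of 0.

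Large changes outside the lists were found in genes of low level too. ZNF812, a transcribed pseudogene now named ZNF812P, was at 4.27, 2.43 and 3.07 CPM under vehicle and 10.2, 9.87 and 7.14 CPM under VIC-1911. Its groups were thus apart by few reads. Among genes that fell, ATXN1, the gene of the polyglutamine protein ataxin-1, was at 32.9, 22.6 and 26.3 CPM under vehicle and 10.2, 9.48 and 11.3 CPM under VIC-1911, a fall of 2.57-fold, and S100P, a calcium-binding protein, was at 23.8, 23.0 and 26.1 CPM under vehicle and 8.66, 11.3 and 12.4 CPM under VIC-1911. NDUFA4L2, a mitochondrial protein induced by hypoxia, was at 7.02, 7.07 and 11.2 CPM under vehicle and 1.96, 4.54 and 4.71 CPM under VIC-1911, and BEST1, at 10.4, 11.9 and 16.01 CPM under vehicle and 4.33, 3.95 and 5.43 CPM under VIC-1911, shares 14.6% of its exonic bases with the far more abundant FTH1, which itself fell by 0.24. Of 305 list members that passed in either direction, 214 also passed in each of the 11 alternative fits that gave them an adjusted p.

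The same drug and dose were sequenced after 7 days in a further 3 libraries with their own 3 vehicle libraries, and the effect at 7 days minus that at 2 days was tested over 13832 genes. Time points came from separate count tables, so time and the culture run cannot be told apart. The effect was higher at 7 days for 2019 genes (14.6%) and lower for 1958 (14.2%). The replication and mitosis lists changed sign. The difference was higher at 7 days for all 67 replication genes, whose median log2 fold change went from -0.26 to 0.86, and for 95 of 104 mitotic genes, from -0.22 to 1.20. The vehicle libraries differed more between the 2 times than the VIC-1911 libraries did: the median level of the mitotic list in vehicle was lower at 7 than at 2 days by 1.61 on the log2 scale, and that in VIC-1911–treated cells by 0.20. CENPF was at 90.5, 68.3 and 65.9 CPM under vehicle and 151, 152 and 154 CPM under VIC-1911 at 7 days, and at 229.5, 209 and 219.6 CPM under vehicle and 153, 155 and 166 CPM under VIC-1911 at 2 days in the same fit. AURKA went from a rise of 0.25 to 1.86 and AURKB from -0.44 to 1.18 in this fit. The ATF4 list went further down, from a median of -0.36 to -1.52, with the difference lower for 20 of 26 genes, and CHAC1 went from -1.30 to -4.24. ER chaperones and their sensors, of which 2 of 24 passed at 2 days, had a lower effect at 7 days in 20 of 24, with medians of 0.01 and -0.41. Histones had medians of 0.69 and 0.87, with a higher difference in 3 and a lower one in 2 of 21. p53 targets had medians of 0.31 and 0.24 but went both ways, with the difference higher for 11 and lower for 9 of 55. It was 0.60 for CDKN1A and 0.67 for BTG2, and -0.99 for PMAIP1 and -1.65 for SESN2. HIST2H2BE (1.07 and 0.89) and CENPN (0.45 and 0.45) had effects for which the test found no difference (adjusted p = 0.137 and 0.961). Of the 101 genes called higher at 2 days, 73 also passed as higher at 7 days and 7 passed as lower, and of the 163 called lower, 101 passed as lower and 22 as higher.

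**Figure D4:**
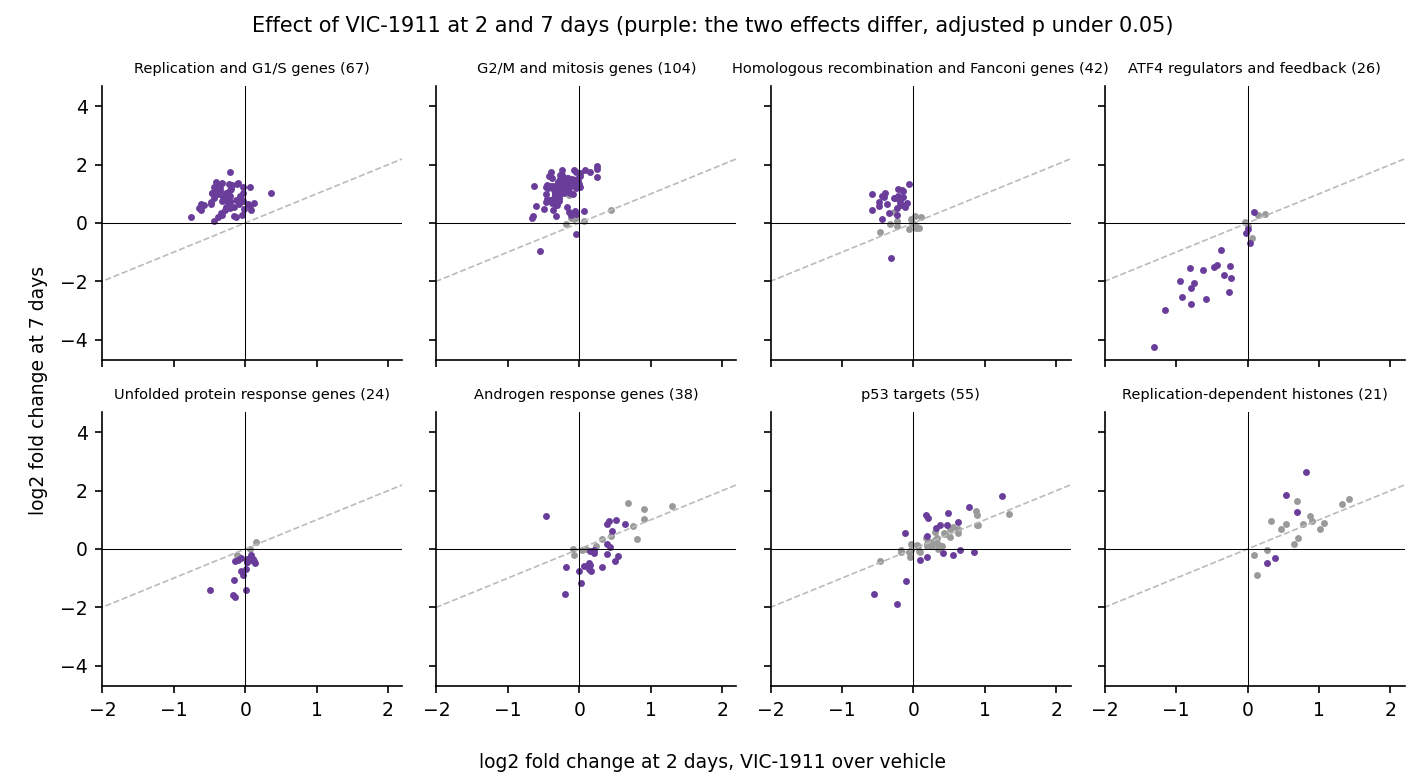
Log2 fold change of VIC-1911 over vehicle at 2 days (x axis) and 7 days (y axis) for the members of 8 lists, with the line of equal effects dashed and genes whose effects differ in purple. Most replication, mitosis and recombination genes lie in the upper left of their panels, and most ATF4 genes lie below the line in the lower left.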

How the data were processed

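Gene expression was measured by RNA-Seq of poly(A) RNA in C4-2B cells, and 6 libraries (3 vehicle and 3 VIC-1911 at 2 days) entered the main comparison, with 6 more at 7 days in the comparison of times. Per the labels and the study's methods, the authors removed adaptors with Trimmomatic, mapped reads to hg38 and quantified genes with STAR (version 2.6.0 in the submitters' processing notes). The RNA kits named in the labels and in the methods differ, and whether counting used strand is not given in the sources used here. The authors deposited raw read counts per gene, and a separate table of FPKM values that they calculated with their own script. Columns were matched to samples by their titles, and groups were taken from the labels. The 2-day count table held 22136 genes, of which 28 had names turned into calendar dates (0.182% of counts) and were tested but not named.

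Counts were fitted with edgeR 4.0.16 (R 4.3.3) by the quasi-likelihood test with TMM scaling, for genes that reached 10 counts in 3 or more libraries, with Benjamini-Hochberg adjustment of p over all genes tested. Totals of 3245273 to 7184420 counts per library limit what can be seen in low genes, and the biological coefficient of variation was 3.44%. In counts simulated for the 2-day comparison (12125 genes passing the filter), the test recovered 89 of 99 genes changed 2-fold and 77 of 100 changed 1.5-fold, and 5 unchanged genes passed. The effects at 7 and 2 days were compared by an interaction term over 12 libraries and 13832 genes. FPKM values were used for marker levels and, after log2 with a pseudocount of 0.1 or 1, in limma 3.58.1 as an alternative. DESeq2 1.42.0, 2 other scalings, no count filter, a replicate block, a test against the 1.5-fold limit (glmTreat) and the omission of each library in turn were the other alternatives.

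The members, lists and comparisons were chosen with earlier results of these data known, and some list members come from the study's own table. Genes were named by rule: anchor genes of each list, up to 4 members per list and direction by adjusted p with the leading member of each role, the 12 called genes with the largest rise and the 12 with the largest fall among genes of at least 1 FPKM in a group and no overlap between groups, and genes that the study names for VIC-1911. Other named genes were chosen after their values were seen. Promoter sequences and positions are from RefSeq GRCh38.p14, with 9792 of the 12241 tested genes matched to a promoter. GARS, SARS, YARS, VARS, QARS, LARS, DARS and SLC7A11 were not searched. Results on some genes are not reported here.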

Additional observations from a re-analysis of the deposited data

Results flagged for a closer look

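Each result here was listed because the effect of VIC-1911 at 7 days differed from that at 2 days by the interaction test (edgeR's quasi-likelihood test, adjusted over 13832 genes). The time points come from separate count tables and their own vehicle libraries, so time cannot be told apart from the culture run. The difference was positive for 2019 genes and negative for 1958. Members with a positive difference were 67 of 67 replication genes, 95 of 104 mitotic genes, 26 of 42 recombination and Fanconi genes and 12 of 19 checkpoint genes. Members with a negative difference were 20 of 26 ATF4 genes, 18 of 33 serine, asparagine and one-carbon enzymes, 10 of 19 amino acid transporters, 20 of 24 unfolded protein response genes and 12 of 15 luminal markers.

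Among single genes, the log2 fold change at 7 days minus that at 2 days was 1.61 for AURKA, 1.63 for AURKB, 1.70 for CDC20 and 1.48 for CENPF. It was 1.49 for TK1 and 1.35 for PCNA, and 1.04 for BRCA1 and 1.08 for FANCD2. CDKN1A rose at both times, by 0.60 more at 7 days. The difference was -1.02 for ATF4, -1.63 for TRIB3, -1.94 for ASNS and -2.94 for CHAC1. It was -0.45 for HSPA5, an ER chaperone, and -0.43 for KLK3. Groups held 3 libraries each, too few to test single libraries as outliers.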

How the results depend on the processing

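DESeq2 was the stricter tool, with 61 genes called higher and 81 lower, and 452 and 395 past the test without the fold limit. It also passed fewer list members: 26 replication and 8 recombination genes as lower, and 8 histone and 6 actin, SRF and YAP genes as higher. Limma on log2(FPKM + 1) called 51 genes higher and 64 lower, and glmTreat, which tests against 1.5-fold, called 16 and 15. Leaving out 1 library gave 83 to 107 genes called higher and 114 to 149 called lower, with 624 to 879 and 564 to 806 past the test. The lowest, 564, was without VIC-1911 replicate 1. Of the genes called higher, 53 of 101 were called in all 6 such fits, and of those called lower, 64 of 163. Upper-quartile scaling changed 918 higher and 880 lower past the test to 734 and 1046. The cause of these shifts was not tested. No named gene that passed changed direction in the other fits checked. Correlations of same-numbered libraries were 0.0725, 0.166 and -0.00545 over 7928 genes, and those of differently numbered ones ran from -0.126 to 0.0593. With 3 libraries per group, these values cannot decide whether the replicate numbers pair the libraries. A replicate block gave 97 genes called higher and 157 lower, with 961 and 877 past the test. Genes under 10 counts in 4 or more libraries were beyond this depth.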
